A study of Mus musculus with 32 samples.

Results

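The comparison concerned 8 libraries of RNA pulled down with an antibody against N6-methyladenosine (m6A) from mouse liver, here called IP libraries. They were chosen by their labels: 4 came from Mettl14 knockout animals after hepatectomy (KO) and 4 from floxed control animals after hepatectomy (flox), out of 32 libraries in the series. The KO animals were labelled as aged 73, 73, 73 and 72 days, and the flox animals as aged 73, 73, 72 and 72 days. Flox animals carry the floxed Mettl14 gene too, so every animal of the comparison had that allele and had lost part of its liver. The Cre driver, strain, sex and interval between surgery and sampling are not given in the labels used here. Total RNA had been broken to about 100 bases before the pull-down. Each animal also gave an input library, made with another kit that selects mRNA, and 8 further IP libraries came from KO and flox animals after sham surgery. The sham KO animals were labelled as aged 73, 73, 73 and 72 days, and the sham flox animals as aged 77, 77, 71 and 73 days.

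In mammals, m6A is written on mRNA by a complex in which METTL3 is the catalytic subunit and METTL14 the partner that binds RNA. Reader proteins then change the splicing, translation or decay of the marked transcript. After partial hepatectomy the remaining hepatocytes leave rest, divide and restore the liver mass, while they go on making plasma proteins, bile acids and glucose. An IP level depends both on how much of a transcript is present and on how much of it the antibody holds, and these cannot be told apart from IP libraries alone. In pieces of whole liver, fewer cells of a type and less RNA per cell cannot be told apart either.

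Levels are given in CPM, which sets each library's counts to one total after TMM scaling, for replicates 1 to 4. Total counts were 7133766 to 19509035 in KO and 14542183 to 17711567 in flox. KO replicate 4 had the lowest total and stood apart: its rank correlation with the other KO libraries was 0.373 to 0.474, against up to 0.779 among KO replicates 1 to 3, over 2878 genes. The 4 flox libraries correlated with each other at 0.746 to 0.825, and KO with flox libraries at 0.35 to 0.636. KO replicate 4 also held the highest summed level of 10 and 12 markers in 2 lists of other cell types: 57.3 CPM of neutrophil markers and 430 CPM of lymphocyte markers, with Ptprc alone at 265 CPM. The other KO libraries had 0.164 to 7.49 CPM and 12 to 34.3 CPM of these, and flox libraries 0 to 38.5 CPM and 0.223 to 58.2 CPM. Most of these genes were too low for a test (4 neutrophil and 2 lymphocyte markers tested), and Camp, Cxcr2, Mpo, Cd3d, Cd8a and Jchain were at 0 in all 8 libraries. Their part in the results was not tested. Results are therefore given with and without this library where it moves them.

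**Figure D1:**
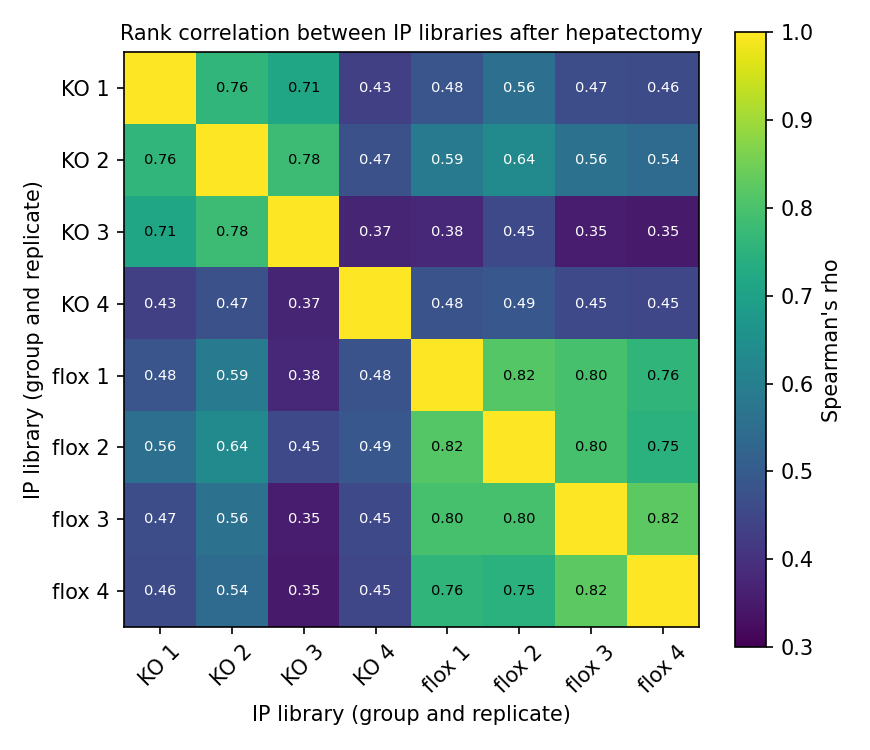
Rank correlation (Spearman's rho, colour and number) between each pair of the 8 IP libraries after hepatectomy, KO replicates first. The 4 flox libraries form a block at 0.746 or more, KO replicates 1 to 3 a second block, and KO replicate 4 lies at no more than 0.49 with any library.

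The targeted gene could not check the labels. Mettl14 had 0, 60, 0 and 0 counts in KO and 33, 0, 22 and 9 counts in flox IP libraries, and 0 counts in every input library. The means of 0.673 ± 1.35 CPM in KO and 1.13 ± 1.08 CPM in flox (SD, n = 4 each) gave p = 0.657 in an exact two-sided permutation test, where 4 against 4 can reach 0.0286. The liver identity of the tissue was clear from the 12 hepatocyte markers, which summed to 18300 to 62100 CPM in KO and 75100 to 93400 CPM in flox. Of these, 3 were called lower (Cyp2e1, Apoa1 and Hnf4a). The number of genes with at least 10 counts was 10605 ± 2861 in KO and 11205 ± 779 in flox (exact permutation p = 0.83). The difference was -600 genes over all libraries and 709 genes without KO replicate 4 (exact permutation p = 0.371).

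Genes called lower in KO livers included plasma protein, bile acid and drug metabolism genes of hepatocytes, and genes called higher included ribosomal protein genes. Of 14020 genes tested with edgeR's quasi-likelihood test, 162 were lower in KO (1.16% of genes tested) and 48 were higher (0.342%) at an adjusted p under 0.05. Counts called in the lists below are read against these shares. Among protein-coding genes with a mean of at least 50 CPM, 4 groups by gene length held 58, 35, 28 and 15 lower calls. They held 26, 7, 2 and 3 higher calls. These groups had 691, 691, 690 and 691 genes, so abundant genes were called more often in both directions. A list with few members called is therefore not read as changed as a group. The median change over all genes was 0.01 on the log2 scale with an interquartile range from -0.9 to 0.95, so list medians are read against a centre near 0. At an unadjusted p under 0.05 there were 1082 lower and 784 higher genes. Leaving out KO replicate 4 gave 335 lower genes, which held 160 of the 162, and 122 higher genes, which held 42 of the 48. Without KO replicate 3 the counts were 98 lower and 18 higher, without flox replicate 3 they were 100 and 16, and without flox replicate 4 they were 107 and 14. Every KO library lay below every flox library for 772 of the 14020 genes (5.51%) and above every flox library for 393 (2.8%). Groups did not overlap for 160 of the 162 lower and 38 of the 48 higher genes. Statements below that groups did not overlap are read against these shares and counts. Genes named for a large change or a high level had to show this separation, so there it adds no support. With only the 8 libraries in the fit, which leaves fewer libraries to estimate the spread, 93 genes were lower and 33 higher. Leaving out each library in turn kept 76 of the lower and 9 of the higher calls every time.

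**Figure D2:**
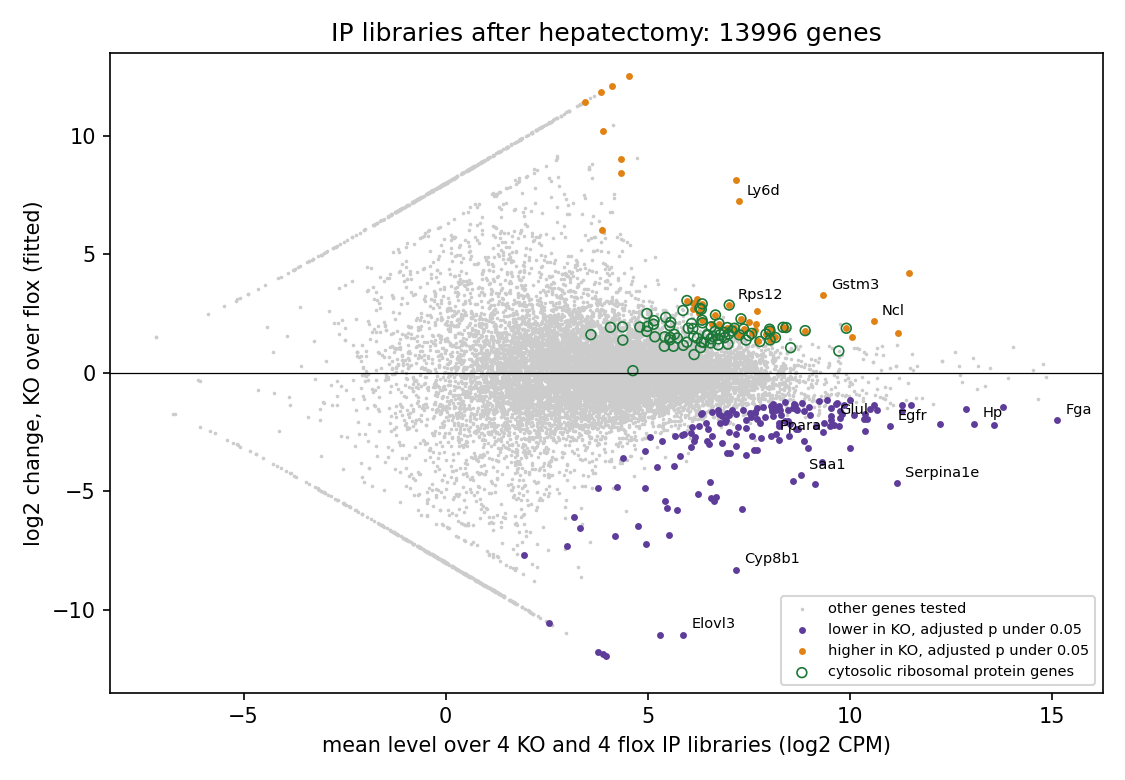
Fitted log2 change, KO over flox, of each gene (y axis) against its mean level over the 8 IP libraries after hepatectomy (x axis, log2 CPM), for the 13996 genes with any count there. The 162 lower genes include some of the highest levels in the libraries, such as Fga and Hp, while all 78 ribosomal protein genes (circles) lie above 0.

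Cytosolic ribosomal protein genes, which encode the proteins of the small and large ribosomal subunits, gave the broadest change upward. All 78 listed genes were tested, 21 were called higher and none lower, and 62 had an unadjusted p under 0.05. Their median log2 change was 1.65, against 0.01 over all genes. Their summed level was 15100, 14200, 23600 and 8910 CPM in KO and 5550, 6010, 4040 and 4440 CPM in flox. All KO sums lay above all flox sums, with KO replicate 3 highest and KO replicate 4 lowest among KO.

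Rps12, a protein of the small subunit, had 179, 163, 391 and 181 CPM in KO and 41.1, 36.1, 14.4 and 34.1 CPM in flox (log2 change 2.86, SE 0.51, adjusted p = 0.00217 by edgeR). KO replicate 3 was far above the other KO libraries here, and the groups did not overlap. Rps19, in which mutations cause Diamond-Blackfan anaemia in people, had 112, 98.4, 238 and 108 CPM in KO and 30.6, 20.2, 20.9 and 14.9 CPM in flox (log2 change 2.68, adjusted p = 0.0077). Rpl23a of the large subunit had 394, 480, 563 and 184 CPM in KO and 151, 129, 101 and 70.5 CPM in flox (log2 change 1.84, adjusted p = 0.00918).

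The direction of the ribosomal group held in every alternative fit, with a median of 1.4 to 1.93, while the number called did not. It was 15 with only the 8 libraries fitted, 5 without KO replicate 3, 5 without flox replicate 4, 7 without flox replicate 3, 11 without flox replicate 1, 13 without KO replicate 1 and 42 without KO replicate 4. Rps12 kept its call in all 16 alternatives. Rps19 lost its call without KO replicate 3 (adjusted p = 0.0737) and Rpl23a without flox replicate 4 (adjusted p = 0.0532). Counts of 75 of the 78 genes carried fractions, which arise where reads are shared out among genes, and these genes have many near-identical processed copies, so single levels are uncertain.

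Ribosomal protein mRNAs are known for a run of pyrimidines at the transcript's start, which ties their translation to growth signals. A run of at least 8 pyrimidines within 15 bases of the annotated start occurred in 24 of the 57 ribosomal protein genes with a RefSeq promoter (42.1%), against 1196 of 10077 genes tested (11.9%). The 14 called ribosomal genes with a promoter held 4 such runs (28.6%). Such a run could lie before, over or after the start. The Rpl4 run of 11 bases begins at the window's edge, 15 bases before the annotated start, and lies wholly before it. The 4 windows are shown because they carry a run, in capitals, from RefSeq on GRCm38.p6.
Rps6 (chr4:86857353-86857382, minus strand): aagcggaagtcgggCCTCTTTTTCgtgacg
Rpl4 (chr9:64173372-64173401, plus strand): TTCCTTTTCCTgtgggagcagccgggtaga
Fau (chr19:6057932-6057961, plus strand): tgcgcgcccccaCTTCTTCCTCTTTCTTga
Rpl28 (chr7:4792950-4792979, plus strand): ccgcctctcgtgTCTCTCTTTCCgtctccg
These 4 genes were higher in KO: Rps6 at 349, 330, 597 and 415 CPM in KO and 165, 178, 146 and 111 CPM in flox, and Fau, which encodes a ribosomal protein fused to a ubiquitin-like part, at 354, 321, 697 and 240 CPM in KO and 80.5, 139, 130 and 127 CPM in flox. Neither gene's groups overlapped. Rpl28 lost its call without flox replicate 4 or KO replicate 3 (adjusted p up to 0.0545), and Fau without flox replicates 1, 3 or 4 or KO replicate 3 (up to 0.123). Rps6 lost it without any 1 flox library or KO replicates 1 or 3 (up to 0.165), and Rpl4 without any 1 flox library or KO replicates 2 or 3 (up to 0.181).

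Other parts of the protein-making machinery had the same direction with few calls. Of 22 genes for ribosome assembly in the nucleolus, 2 were higher (median log2 change 1.05). Ncl, nucleolin, had 2630, 2320, 4780 and 430 CPM in KO and 486, 521, 600 and 619 CPM in flox (log2 change 2.19, SE 0.47, adjusted p = 0.0117). KO replicate 4 lay below all flox libraries for Ncl, and the other KO libraries far above them. Nop56, a core protein of the particles that methylate ribosomal RNA, was also higher (log2 change 2.71, adjusted p = 0.0231), while Npm1, nucleophosmin, had a log2 change of 2.07 that missed the threshold (adjusted p = 0.0607). Without KO replicate 3 neither Ncl (adjusted p = 0.0701) nor Nop56 was called, and Nop56 also lost its call without flox replicates 2, 3 or 4 (up to 0.195). The list had 4 calls without KO replicate 4 and none with only the 8 libraries fitted (adjusted p = 0.0599 for Ncl and 0.0739 for Nop56). Without flox replicate 1 the Nop56 log2 change was 3.4.

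Of 19 translation factors, 2 were higher (median 0.64): Rack1, a scaffold on the small subunit, and Eef1b2, the exchange factor of the elongation factor. Rack1 had 108, 72, 164 and 150 CPM in KO and 31.6, 18.7, 5.09 and 8.99 CPM in flox (log2 change 2.94, adjusted p = 0.0138), with no overlap. Of 16 chaperonin and cytosolic chaperone genes, Cct2, a subunit of the ring that folds actin and tubulin, was higher (log2 change 3.11, adjusted p = 0.0141) with 107, 45.3, 71.3 and 309 CPM in KO and 27.4, 18.6, 10 and 5.72 CPM in flox. The Rack1 call was lost without flox replicates 3 or 4 or KO replicate 3 (adjusted p 0.0544 to 0.0666), and the Cct2 call without flox replicates 3 or 4 or KO replicate 4 (0.0553 to 0.0707), with a log2 change of 2.27 without KO replicate 4. Eef1b2 lost its call without any 1 library other than KO replicate 4 (up to 0.302), and without that library 6 translation factors were called.

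**Figure D3:**
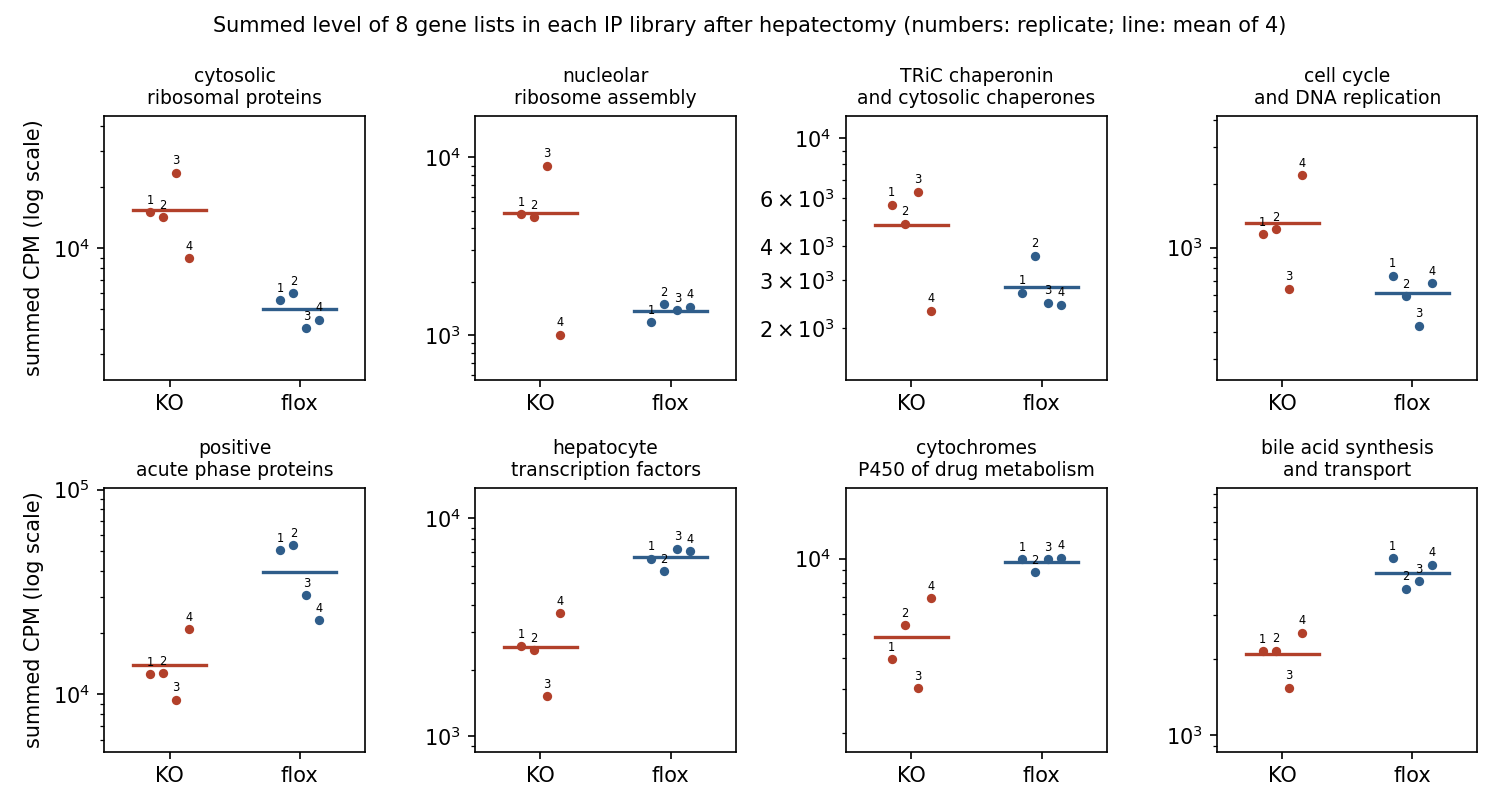
Summed IP level of 8 gene lists (CPM, log scale) in each KO library (left) and each flox library (right) after hepatectomy, with replicate numbers and the mean of 4 as a line. Ribosomal protein sums separate the groups upward, and the sums of transcription factors, P450s and bile acid genes separate them downward; KO replicate 4 falls below every flox library for nucleolar and chaperonin genes.

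Among the other higher genes, Gstm3, a glutathione transferase that couples glutathione to electrophiles, had 1460, 1610, 913 and 687 CPM in KO and 139, 128, 34.7 and 180 CPM in flox (log2 change 3.28, SE 0.52, adjusted p = 0.000739). Every KO library was well above every flox library. Ly6d, a lipid-anchored surface protein best known from lymphoid and epithelial cells, had 314, 348, 447 and 101 CPM in KO and 3.69, 2.31, 1.72 and 0.149 CPM in flox (log2 change 7.26, SE 1.38, adjusted p = 0.00585). Krt18, an intermediate filament protein of simple epithelia, had 463, 236, 250 and 383 CPM in KO and 108, 112, 42.2 and 60.7 CPM in flox (log2 change 2.04, adjusted p = 0.0159). None of these 3 overlapped between groups. The Gstm3 and Ly6d calls held in all 16 alternatives, and the Krt18 call was lost without flox replicates 3 or 4 or KO replicate 1 (adjusted p 0.0687 to 0.0922).

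Gstm3 and Cyp2a5 were the 2 higher genes among 24 glutathione transferases and Nrf2 targets (median 0.48). Cyp2a5, a P450 that oxidises coumarin and nicotine, had 284, 454, 393 and 123 CPM in KO and 77.8, 50.4, 108 and 119 CPM in flox (log2 change 1.82, adjusted p = 0.0315), and its call was lost without any 1 library other than KO replicate 4 (up to 0.124) and with only the 8 libraries fitted (0.071). App, the amyloid precursor protein, had 561, 362, 451 and 62.2 CPM in KO and 59.4, 63, 41.6 and 75.1 CPM in flox (log2 change 2.59, adjusted p = 0.00908), so KO replicate 4 sat among the flox libraries. Slc51b, a subunit of the basolateral bile acid exporter, had 46.6, 12.7, 0.165 and 79.7 CPM in KO and no count in flox. It was at least 510-fold higher in KO by a floor of 3 counts over the flox group (adjusted p = 0.0479). That call was lost without any 1 flox library or KO replicates 1, 2 or 4 (up to 0.129). Rap1gap2, a regulator of the small GTPase Rap1, had 3.5, 5.52, 12.8 and 164 CPM in KO and no count in flox, at least 496-fold higher by the same floor (adjusted p = 0.0236). KO replicate 4 held most of its level, and the call was lost without KO replicate 4 or any 1 flox library (up to 0.171).

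Genes of plasma proteins made by hepatocytes had lower IP levels across several lists. Fibrinogen is the protein of clots, a hexamer of paired alpha, beta and gamma chains, and 2 of its 3 genes were lower (Fga and Fgb, median over the 3 of -1.53). Fga, the alpha chain, had 13900, 13800, 8830 and 21600 CPM in KO and 70900, 66500, 53800 and 39900 CPM in flox (log2 change -1.99, adjusted p = 0.0017). Fgb, the beta chain, had 3720, 3910, 2740 and 5040 CPM in KO and 13200, 13900, 9270 and 8150 CPM in flox (log2 change -1.53, adjusted p = 0.00957). The summed level of the 3 was 19800, 19500, 12800 and 31200 CPM in KO and 91900, 88500, 67300 and 52400 CPM in flox, with no overlap. Fgg had a log2 change of -1.33 (adjusted p = 0.0904), with KO replicate 4 at 4560 CPM above the lower flox values of 4210 and 4300 CPM. All 3 were called without KO replicate 4.

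Acute phase proteins, which the liver secretes in bulk during inflammation and after injury, had 7 of 20 genes lower and none higher (median -1.44). Their summed level was 12500, 12700, 9400 and 20800 CPM in KO and 50600, 53600, 30500 and 23000 CPM in flox, and KO replicate 4 came close to flox replicate 4. Hp, haptoglobin, which binds free haemoglobin, had 2120, 3030, 1240 and 6390 CPM in KO and 18400, 18200, 12400 and 7680 CPM in flox (log2 change -2.15, SE 0.46, adjusted p = 0.0117). Saa4, the constitutive serum amyloid A, had 106, 182, 61.4 and 478 CPM in KO and 1750, 1560, 1810 and 2280 CPM in flox (log2 change -3.16, adjusted p = 0.000666). Both were separated between groups in all libraries. The inducible Saa1 had 3.34, 70.5, 16.4 and 77.3 CPM in KO and 1660, 1050, 496 and 150 CPM in flox (log2 change -4.33, adjusted p = 0.00969). Crp, C-reactive protein, had 60.7, 66, 54 and 347 CPM in KO and 864, 810, 578 and 462 CPM in flox (log2 change -2.36, adjusted p = 0.0113). For both, the closest libraries of the groups were KO replicate 4 and flox replicate 4. Without KO replicate 4 the log2 changes were -2.74 for Hp, -3.99 for Saa4 and -3.49 for Crp.

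Serpina3n, a protease inhibitor, and Steap4, a metalloreductase, were lower as well, at log2 changes of -2.18 and -2.26, and so was Saa2 at -4.68. The Steap4 call was lost without flox replicate 2 (adjusted p = 0.0609) and the Saa2 call without flox replicate 1, KO replicate 1 or KO replicate 3 (up to 0.0796), and its log2 change was -5.34 without KO replicate 2. Saa1 and Saa2 are near-identical genes whose reads may be divided between them.

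The alpha-1-antitrypsin and related serpin genes of chromosome 12 had 4 of 9 members lower (median -1.35), and all 9 had a log2 change below 0. Serpina1e, an alpha-1-antitrypsin copy, had 155, 122, 49.9 and 383 CPM in KO and 4710, 5000, 2890 and 5170 CPM in flox (log2 change -4.65, SE 0.61, adjusted p = 0.000103). Serpina3k had 4180, 4130, 2840 and 6280 CPM in KO and 17700, 18100, 19700 and 24500 CPM in flox (log2 change -2.2, adjusted p = 0.000597). Groups were far apart for both, and the 4 calls held in all 16 alternatives. The Serpina1e log2 change was -5.35 without KO replicate 4. Members differed in size: Serpina1d had a log2 change of -1.52 (adjusted p = 0.0028) and Serpina1c one of -1.02 that missed the threshold (adjusted p = 0.194). Counts of 8 of the 9 genes carried fractions, so reads may be partly divided among copies.

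Major urinary proteins, pheromone carriers of male-biased, growth hormone-driven expression, had 7 of 15 genes lower and all 15 below 0 (median -4.34, the lowest among lists with at least 7 tested genes). Mup3 had 51.3, 115, 20.3 and 164 CPM in KO and 1520, 947, 961 and 1280 CPM in flox (log2 change -3.75, SE 0.5, adjusted p = 0.000112). Mup20, darcin, had 36.3, 69.1, 89.7 and 105 CPM in KO and 354, 763, 188 and 831 CPM in flox (adjusted p = 0.00294). Neither overlapped. Mup9 held 2 counts in KO and 416 in flox, a ratio of 240 (95% counting interval 66.1 to 1990). Its call was lost without flox replicate 4, KO replicate 1 or KO replicate 2 (adjusted p up to 0.0954), and that of Mup12 without flox replicate 3 or KO replicate 1 (up to 0.0556). Both Mup9 counts lay in KO replicate 3: the fitted Mup9 log2 change of -7.68 was -9.93 without it and -6.52 without flox replicate 4, and that of Mup12 was -6.57, and -11.3 without KO replicate 3. The list had 12 calls without KO replicate 3, 11 without KO replicate 4 and 4 with only the 8 libraries fitted. Counts of all 15 genes carried fractions, so reads may be divided among copies and which member changed is uncertain.

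Clotting factors beyond fibrinogen were lower in 3 of 7 vitamin K-dependent genes (median -0.92) and 2 of 14 others (median -1.06). F10, factor X, had 81.7, 174, 137 and 189 CPM in KO and 375, 396, 500 and 449 CPM in flox (log2 change -1.56, adjusted p = 0.00908). F7, factor VII, had 0, 11.8, 8.43 and 4.17 CPM in KO and 107, 80.1, 76.5 and 112 CPM in flox (log2 change -3.93, adjusted p = 0.014). These factors, of the start and the common end of the clotting cascade, showed no overlap between groups. Proz (protein Z), Hrg (histidine-rich glycoprotein) and Kng1 (kininogen) were also lower, at log2 changes of -1.44, -1.6 and -1.15. Their calls were lost without KO replicate 3 and without 2 to 4 of the other libraries, at adjusted p up to 0.0974, 0.0836 and 0.0868. The further libraries were flox replicates 1, 3 and 4 and KO replicate 2 for Proz, KO replicates 1 and 2 for Hrg, and flox replicates 1, 2 and 4 and KO replicate 1 for Kng1. The Hrg log2 change was -2.19 without KO replicate 4. With only the 8 libraries fitted, F7 was not called (adjusted p = 0.114) and F10 was the only call among the 2 lists, and with library totals in place of TMM factors F10 was not called (0.0507). Prothrombin, F2, had 283, 336, 252 and 328 CPM in KO and 477, 413, 544 and 466 CPM in flox, and its log2 change of -0.66 missed the threshold (adjusted p = 0.353).

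Complement had 3 of 19 genes lower, C1ra and C1s1 among them (median -0.94), all lost without KO replicate 3 or without flox replicates 1 or 3 (adjusted p up to 0.127), and 8 were called without KO replicate 4 and none with only the 8 libraries fitted. The further libraries were flox replicate 4 and KO replicates 1 and 2 for C1ra, and flox replicates 2 and 4 and KO replicate 1 for C1s1. Of 11 apolipoproteins, Apoa1, the main protein of high-density lipoprotein, was lower with 8240, 7610, 4370 and 10300 CPM in KO and 15200, 21100, 21300 and 25100 CPM in flox (log2 change -1.44, SE 0.3, adjusted p = 0.00957). There were 4 called apolipoproteins without KO replicate 4. None of 13 albumin and plasma carrier genes was called (median -0.8). Their summed level was 26800, 25000, 18700 and 29200 CPM in KO and 34100, 35600, 25500 and 34100 CPM in flox, which overlap. Within this list Itih2, a carrier protein of hyaluronan, had a log2 change of 1.17 (adjusted p = 0.0618), opposite to most of its neighbours.

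**Figure D4:**
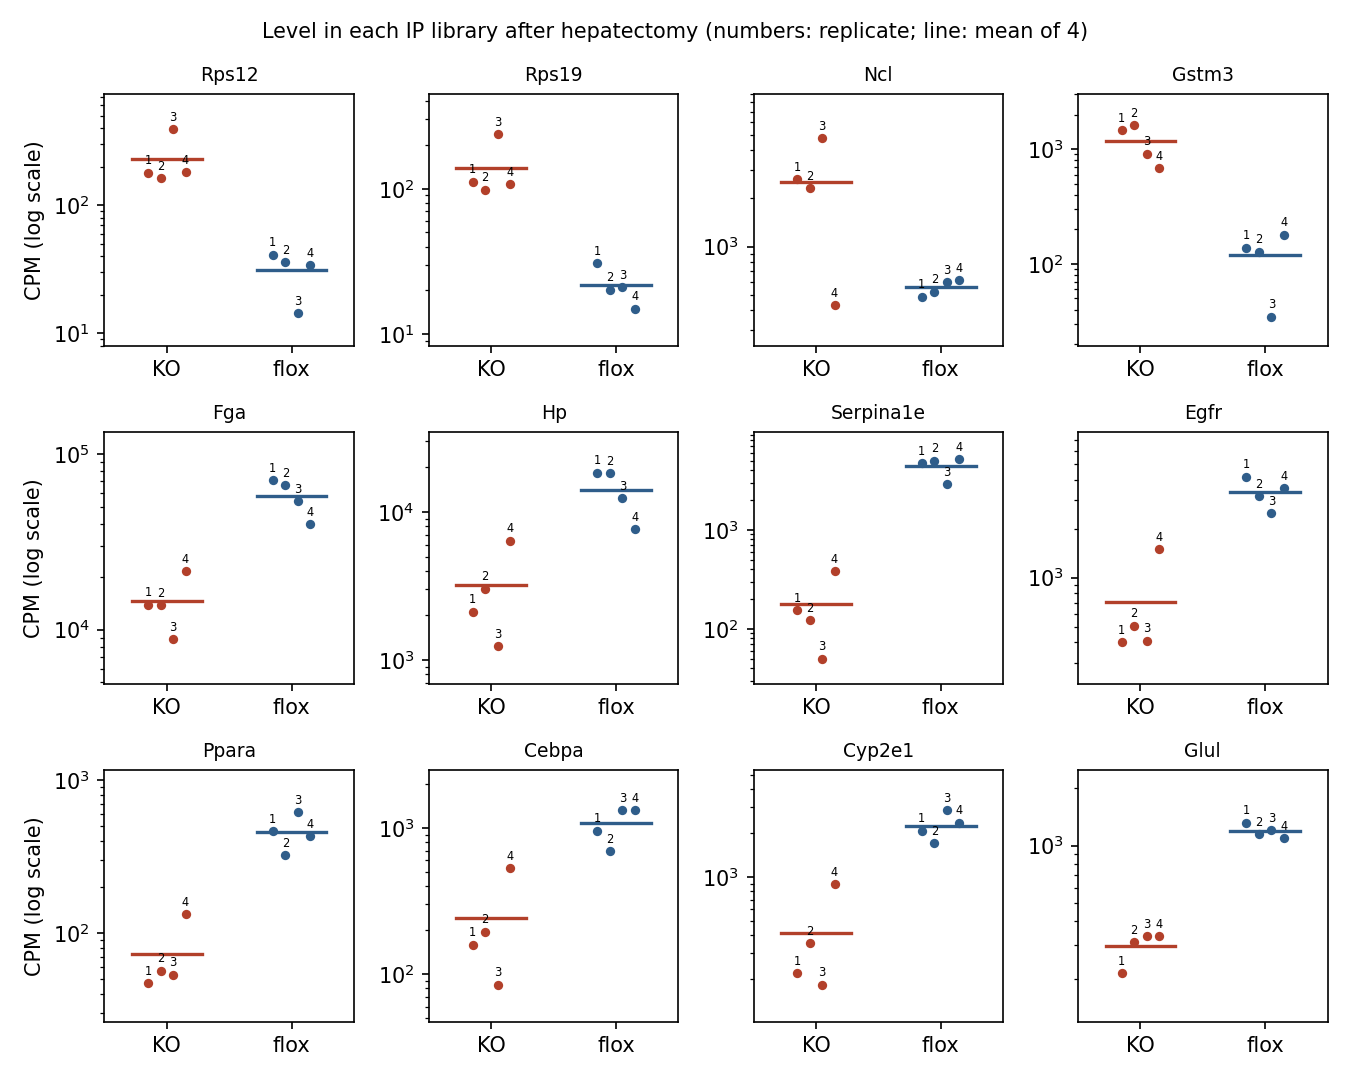
IP level (CPM, log scale) of 12 genes in each KO library (left) and flox library (right) after hepatectomy, with replicate numbers and the mean of 4 as a line. Rps12, Rps19 and Gstm3 are higher in every KO library, Ncl is higher in 3 of 4, and the 8 other genes are lower in every KO library, with KO replicate 4 the highest KO library for Fga, Hp, Serpina1e, Egfr, Ppara, Cebpa and Cyp2e1.

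Promoters of liver genes are known for binding sites of the HNF1 and C/EBP families, and 3 short motifs were looked for in the 250 bases before each RefSeq start, on both strands. No motif contains another. The HNF1 motif GTTAAT occurred in 16 of the 116 lower genes with a promoter (13.8%), in 5.71% of the higher genes and in 4.15% of all genes tested. The C/EBP element TTNNGCAA occurred in 26 of the 116 (22.4%), in 8.57% of the higher genes and in 7.99% of all. Among genes of the liver lists, the HNF1 motif occurred in 9 of 41 called lower (22%) and in 29 of 211 not called lower (13.7%), and the C/EBP element in 13 (31.7%) and 39 (18.5%). The HNF4A element CAAAGTCCA was rare: it occurred in 2.59% of the lower genes and 0.466% of all, and within the liver lists in 2.44% of genes called lower and 3.32% of those not called lower. A selection of matches before fibrinogen, serpin and serum amyloid genes described above is shown, not every match. Capitals mark the motif, read on the gene's strand, so a match on the other strand appears as its reverse complement.
Fga, HNF1 motif (chr3:83026099-83026128, plus strand): caagggtgatgATTAACctcctgccggttt
Fgb, HNF1 motif (chr3:83049874-83049903, minus strand): aaatgtcaaatATTAACtaaagggaggtaa
Serpina1e, HNF1 motif (chr12:103956957-103956986, minus strand): tggtgacattgGTTAATattcactagcaaa
Serpina1d, HNF1 motif (chr12:103773631-103773660, minus strand): tggtgacattgGTTAATattcactagcaaa
Fga, C/EBP element (chr3:83026007-83026036, plus strand): gctacagagaaTTGAGCAAgagtttctggg
Fgb, C/EBP element (chr3:83049925-83049954, minus strand): ctgggaagatgTTGCTCAAatgataaagca
Saa4, C/EBP element (chr7:46732637-46732666, minus strand): accaggaaggaTTGAGCAAgagggactctg
The 2 serpin windows are letter for letter the same, while the genes' log2 changes were -4.65 and -1.52. A match is a description of letters and shows no binding.

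Transcription factors that hold hepatocyte identity were lower in 6 of 16 genes and higher in none (median -1.23), and 14 had an unadjusted p under 0.05. Their summed level was 2580, 2480, 1520 and 3660 CPM in KO and 6500, 5680, 7210 and 7040 CPM in flox, with no overlap. Ppara, the nuclear receptor that drives fatty acid oxidation in fasting, had 47.2, 56.6, 53.4 and 133 CPM in KO and 465, 323, 616 and 431 CPM in flox (log2 change -2.66, SE 0.43, adjusted p = 0.000928). Cebpa, which holds hepatocytes in a differentiated, resting state, had 159, 195, 84.9 and 533 CPM in KO and 956, 694, 1320 and 1320 CPM in flox (log2 change -2.14, SE 0.42, adjusted p = 0.00585). Hnf4a, the central regulator of the hepatocyte programme, had 565, 462, 285 and 604 CPM in KO and 994, 1180, 1310 and 1200 CPM in flox (log2 change -1.29, SE 0.28, adjusted p = 0.0141). All 3 were lower in every KO library.

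Prox1, Foxa1 and Rxra were the other 3, at log2 changes of -1.51, -2.69 and -1.15. The Ppara and Cebpa calls held in all 16 alternatives. Hnf4a lost its call without flox replicate 3 (adjusted p = 0.0523) or KO replicate 3 (0.0525), and Prox1 without flox replicate 1, KO replicate 1 or KO replicate 3 (up to 0.0716). Foxa1 lost it without flox replicates 1, 3 or 4 or KO replicate 3 (up to 0.102), and Rxra without any 1 library other than KO replicate 4 (up to 0.144). There were 9 calls among the 16 without KO replicate 4, where the Cebpa log2 change was -2.87, and 4 with only the 8 libraries fitted.

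Receptors through which growth signals reach hepatocytes had 3 of 14 genes lower (median -1.28). Egfr, the receptor of EGF and TGF alpha, had 399, 507, 410 and 1500 CPM in KO and 4180, 3190, 2500 and 3570 CPM in flox (log2 change -2.25, SE 0.39, adjusted p = 0.0017). KO replicate 4 was highest among KO and still below all flox libraries. Il6ra, the interleukin 6 receptor subunit that starts the acute phase response, had 83.3, 157, 134 and 84.3 CPM in KO and 291, 430, 636 and 605 CPM in flox (log2 change -2.1, adjusted p = 0.0034). Ghr, the growth hormone receptor, had 202, 213, 159 and 258 CPM in KO and 581, 491, 627 and 761 CPM in flox (log2 change -1.56, adjusted p = 0.0106). The 3 calls held in all 16 alternatives, and 5 of the 14 were called without KO replicate 4, where the Egfr log2 change was -2.94. Il1r1, the interleukin 1 receptor, was lower too, with 571, 246, 313 and 333 CPM in KO and 1460, 1880, 1300 and 788 CPM in flox (adjusted p = 0.0116). It was called in all 16 alternatives and was no member of a list.

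Among 12 clock genes, the PAR bZIP factors Dbp and Tef were lower (median of the list -0.95). Dbp had 5.86, 12.2, 9.48 and 8.84 CPM in KO and 55.2, 5.18, 173 and 180 CPM in flox (log2 change -3.51, adjusted p = 0.00957), and flox replicate 2 lay below every KO library. Tef had 2.03, 52.8, 14.9 and 13.3 CPM in KO and 68.6, 22, 229 and 301 CPM in flox, with overlap as well. Flox replicates 3 and 4, aged 72 days, were high for both genes, flox replicates 1 and 2, aged 73 days, were lower, and KO replicate 4, aged 72 days, was not high. The time of day of sampling is not given in the labels used here. With only the 8 libraries fitted neither gene was called (adjusted p = 0.0681 for Dbp and 0.162 for Tef). The Tef log2 change of -2.9 was -3.95 without KO replicate 2. The Tef call was lost without flox replicates 3 or 4 or KO replicates 1 or 3 (adjusted p up to 0.165).

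Genes that depend on the male pattern of growth hormone pulses had 6 of 12 lower and all 12 below 0 (median -3.26). Serpina1e and Mup20, described above in other lists, were among the 6. Elovl3, which elongates long saturated fatty acids, had 0.0548, 0, 0.0551 and 0.126 CPM in KO and 97, 195, 75.7 and 98.9 CPM in flox. Its 3 counts in KO against 6656 in flox give a ratio of 2560 (95% counting interval 876 to 12400, adjusted p = 4.36e-07), and it was the smallest p-value of the comparison. Hsd3b5, a steroid dehydrogenase of male liver, had 0, 0.0897, 0 and 0 CPM in KO and 33.9, 23.7, 40.3 and 219 CPM in flox, a ratio of 2540 (703 to 21000, adjusted p = 1.41e-05). Neither gene was far above 0 in any KO library. The Hsd3b5 ratio depended on single libraries: its fitted log2 change of -11.08 was -9.81 without flox replicate 4 and -13.27 without KO replicate 2, which held both KO counts. Cyp7b1, an oxysterol hydroxylase, had 0, 0.538, 13.1 and 3.41 CPM in KO and 180, 51.4, 69.1 and 287 CPM in flox (log2 change -5.11, adjusted p = 0.0094). Slco1a1, an organic anion carrier, had 0, 0.0449, 0.0551 and 21.8 CPM in KO and 210, 166, 197 and 234 CPM in flox (adjusted p = 0.0473). Its call was lost without any 1 library other than KO replicate 4 (up to 0.106), and its log2 change of -5.25 was -12.25 without KO replicate 4. The Cyp7b1 log2 change was -6.91 without KO replicate 3, and its call was lost with only the 8 libraries fitted (0.0681). Of the 12 genes, 9 were called without KO replicate 4 and 4 with only the 8 libraries fitted.

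Cytochromes P450 of drug metabolism were lower in 7 of 28 genes and higher in 1 (median -1.32). Cyp2e1, which oxidises ethanol and acetaminophen around the central vein, had 219, 351, 183 and 894 CPM in KO and 2080, 1700, 2870 and 2360 CPM in flox (log2 change -2.45, SE 0.39, adjusted p = 0.000725). Cyp2c29 had 82, 94.5, 30.5 and 242 CPM in KO and 1120, 746, 620 and 827 CPM in flox (log2 change -2.88, adjusted p = 0.000624). Cyp2f2, a P450 of periportal hepatocytes, had 125, 212, 44.5 and 176 CPM in KO and 563, 578, 370 and 759 CPM in flox (log2 change -2.03, adjusted p = 0.00334). Groups did not overlap for any of the 3. Cyp3a13, Cyp2j5, Cyp2c37 and Cyp1a2 were the other 4, and only the Cyp1a2 call was lost on leaving out a library (flox replicates 1, 3 or 4 or KO replicates 1 or 3, adjusted p up to 0.127). With only the 8 libraries fitted Cyp2c37 was not called either (0.129), and the list had 5 lower and 0 higher genes. Of the 28, 12 were lower without KO replicate 4, where the log2 change was -3.16 for Cyp2e1 and -3.59 for Cyp2c29. The Cyp2c37 log2 change of -5.43 was -10.68 without KO replicate 2. Counts of 21 of the 28 genes carried fractions, so reads may be partly divided among relatives. Of 11 carboxylesterases, Ces3b and Ces1f were lower (log2 changes -5.79 and -2.71), and 5 were called without KO replicate 4. With only the 8 libraries fitted none was called (adjusted p = 0.0681 for Ces3b and 0.134 for Ces1f). The Ces3b log2 change was -10.22 without KO replicate 3.

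Bile acid genes were lower in 6 of 21 (median -1.25), with summed levels of 2150, 2160, 1540 and 2540 CPM in KO and 5020, 3800, 4070 and 4730 CPM in flox. Cyp7b1 and Slco1a1, described above as growth hormone-dependent genes, were among the 6. Cyp8b1, which sets the share of cholic acid by 12-alpha hydroxylation, had 0.0548, 3.28, 0 and 0 CPM in KO and 320, 298, 198 and 340 CPM in flox (log2 change -8.31, SE 1.05, adjusted p = 6.89e-05). Its level was thus close to 0 in every KO library and at 198 CPM or more in every flox library. Nearly all of its KO counts lay in KO replicate 2, without which the log2 change was -13.22. Slco1b2, a sinusoidal carrier, had 72.7, 141, 46.6 and 129 CPM in KO and 766, 559, 620 and 539 CPM in flox (log2 change -2.67, adjusted p = 0.00013). Slc10a1, the sodium-dependent uptake carrier NTCP, had 121, 59.8, 20.8 and 337 CPM in KO and 796, 379, 548 and 694 CPM in flox (log2 change -2.17, adjusted p = 0.025). Baat, which joins bile acids to taurine, was lower at a log2 change of -1.82 (adjusted p = 0.0479). The Slc10a1 call was lost without flox replicates 1 or 4 or KO replicates 1 or 2 (adjusted p up to 0.0817), and the Baat call without any 1 library other than KO replicate 4 (up to 0.157). Without KO replicate 4 the log2 changes were -3.17 for Slc10a1 and -2.58 for Baat, and 9 genes were lower and 1 higher. With only the 8 libraries fitted 2 were lower.

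Pericentral genes that need Wnt signals had 4 of 15 lower (median -1.17). Glul, glutamine synthetase of the cells that ring the central vein, had 214, 311, 335 and 334 CPM in KO and 1320, 1150, 1210 and 1090 CPM in flox (log2 change -2, SE 0.3, adjusted p = 0.000485). Slc1a2, a glutamate carrier of the same cells, had 15.3, 60.1, 21.5 and 69.3 CPM in KO and 219, 187, 361 and 240 CPM in flox (log2 change -2.6, adjusted p = 0.00778). Both genes were far apart between the groups, and both calls held in all 16 alternatives. Cyp2e1 and Cyp1a2, described above, were the other 2.

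In fuel metabolism the calls were few. Of 23 genes of fatty acid oxidation and PPAR alpha, 3 were lower (median -0.34), Angptl4, an inhibitor of lipoprotein lipase, among them. Angptl4 had 111, 71.1, 83.5 and 125 CPM in KO and 240, 272, 378 and 322 CPM in flox (log2 change -1.64, SE 0.37, adjusted p = 0.0166). The groups did not overlap. The Angptl4 call was lost without flox replicates 3 or 4 or KO replicates 2 or 3 (adjusted p up to 0.0786).

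Of 15 genes of gluconeogenesis and glycogen, G6pc1, the glucose-releasing phosphatase, and Pck1, the cytosolic PEP carboxykinase, were lower (median of the list -0.74). G6pc1 had 144, 163, 49.9 and 190 CPM in KO and 602, 463, 848 and 894 CPM in flox (log2 change -2.36, adjusted p = 0.0017). Pck1 had 1090, 1250, 365 and 546 CPM in KO and 1770, 1880, 3290 and 2870 CPM in flox (log2 change -1.59, adjusted p = 0.0246), and its call was lost without flox replicates 3 or 4 or KO replicate 3 (up to 0.0946). Of 29 enzymes of amino acid breakdown, 26 had a log2 change below 0 (median -0.89) and 1 was called: Gnmt, which uses up S-adenosylmethionine, the methyl donor. Gnmt had 96.4, 112, 67.2 and 135 CPM in KO and 356, 340, 395 and 419 CPM in flox (log2 change -1.88, adjusted p = 0.00188). Thrsp of fat synthesis, Slc25a13 of the urea cycle, Mt2 among metallothioneins and Xbp1 of the unfolded protein response were the only called members of their lists, all lower. Leaving out any 1 library ended these calls (adjusted p up to 0.162), other than flox replicate 2 or KO replicate 2 for Thrsp, KO replicates 2 or 4 for Slc25a13, flox replicate 4 or KO replicate 4 for Mt2 and KO replicate 4 for Xbp1. Slc27a2 and Acsl1, which activate fatty acids, were lower outside the lists (log2 changes -2.23 and -2.26) and were called in all 16 alternatives.

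Cell division genes were not called in either direction. Of 28 tested, 1 had an unadjusted p under 0.05, and the median was 0.91. Their summed level was 1160, 1220, 640 and 2200 CPM in KO and 737, 589, 428 and 682 CPM in flox, so KO replicate 3 fell among the flox libraries and KO replicate 4 was highest. Mki67, the proliferation antigen Ki-67, had 772, 654, 333 and 1500 CPM in KO and 469, 386, 263 and 414 CPM in flox (log2 change 1.09, adjusted p = 0.54). Ccnd1, cyclin D1, which carries hepatocytes into the cycle, had 102, 143, 31.3 and 236 CPM in KO and 52.5, 34.2, 29.7 and 46.9 CPM in flox (log2 change 1.65, adjusted p = 0.423). Both genes' lowest KO library, replicate 3, lay within the flox range. The sampling time after surgery is not given in the labels used here.

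No call fell among 13 m6A writers and erasers (median 0.21), 11 m6A readers (0.24), 27 splicing and RNA-binding genes (0.52), 15 mitochondrially encoded transcripts (0.38), 15 p53 targets (0.58), 16 immediate early genes (-0.6), 19 genes of cholesterol synthesis and uptake (-0.4) or 13 of iron handling (-0.09). Markers of the other cells of the liver had no call either. The median was 0.58 over 12 endothelial markers, 0.74 over 12 of stellate cells and fibroblasts, 0.83 over 13 of Kupffer cells and monocytes and -0.03 over 8 of cholangiocytes. Kupffer cell and monocyte markers summed to 1050 to 1150 CPM in KO replicates 1 to 3, 600 CPM in KO replicate 4 and 419 to 742 CPM in flox. Stellate cell markers summed to 714 to 1010 CPM in KO and 366 to 551 CPM in flox, and endothelial markers to 617 to 1420 CPM in KO and 580 to 967 CPM in flox. The stellate cell sum was higher in every KO library, while the hepatocyte marker sum was lower in every one. The part of these cell markers in the results was not tested.

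The same genotype contrast in sham-operated animals gave 7 lower (0.0499%) and 6 higher genes (0.0428%) among the same 14020, with 798 at an unadjusted p under 0.05. Called in both surgeries were Hsd3b5, Glul, Mup3, Mup11, Mup16 and Mup17 among lower genes and Gstm3 and Ly6d among higher ones. Glul averaged 310 ± 86.5 CPM in sham KO and 1290 ± 339 CPM in sham flox (SD, n = 4 each), a log2 change of -2.06 (adjusted p = 0.000965), close to its -2 after hepatectomy. Over all 14020 genes tested, 6031 had a sham log2 change below 0 and 7989 above 0, with a median of 0.16. Of the 162 genes lower after hepatectomy, 146 had a sham log2 change below 0, with a median of -0.51. Of the 48 higher genes, 36 were above 0 in sham animals (median 0.27).

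The difference between the 2 contrasts was tested as an interaction, and 4 genes passed (0.0285%), with 1105 at an unadjusted p under 0.05. All 4 were called lower in KO after hepatectomy, and none was called after sham surgery. Elovl3 averaged 56.9 ± 38.7 CPM in sham KO and 193 ± 111 CPM in sham flox, and its interaction was -9.28 on the log2 scale (adjusted p = 0.000132). Cyp8b1 averaged 239 ± 151 CPM in sham KO and 275 ± 121 CPM in sham flox, so the near absence after hepatectomy had no counterpart in sham animals (interaction -8.11, adjusted p = 0.00216, and -13.02 without hepatectomy KO replicate 2). Slc3a1, a subunit of the carrier of cystine and basic amino acids, had 9.36, 6.91, 2.15 and 0.253 CPM in KO and 222, 203, 175 and 139 CPM in flox after hepatectomy, and 116 ± 109 CPM in sham KO against 97.1 ± 28.6 CPM in sham flox (interaction -5.54, adjusted p = 0.0166). Gm8893, a predicted pseudogene whose reads may be partly divided with its relatives, had 34.4, 20.4, 14.8 and 56.6 CPM in KO and 660, 824, 632 and 871 CPM in flox (interaction -4.12, adjusted p = 0.00216). It was named because the interaction had so few calls. The Slc3a1 interaction was lost without sham flox replicate 1 (adjusted p = 0.0674), sham flox replicate 2 (0.0519) or sham KO replicate 2 (0.0855), and the other 3 held in all 23 alternatives.

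In the input libraries of the same hepatectomised animals, 3 of 8769 genes were called (0.0342%), all higher in KO, and none was lower, with 1227 at an unadjusted p under 0.05 (1093 higher and 134 lower). DESeq2 called 926 higher and 126 lower. The input libraries also differed in breadth: 5979 to 8278 genes had at least 10 counts in KO inputs and 4462 to 4950 in flox inputs. The part of this difference in the input results was not tested. Of the 162 genes lower in IP, 159 were tested in the inputs, and 84 of them had a log2 change below 0, with a median of -0.02. Over all 8717 genes tested in both kinds of library, 3190 were below 0 and 5520 above 0 in the inputs, with a median of 0.48. Fga averaged 42200 ± 9540 CPM in KO inputs and 45800 ± 5640 CPM in flox inputs, and Serpina1e 3590 ± 1120 CPM in KO inputs and 4160 ± 723 CPM in flox inputs (SD, n = 4 each). Elovl3 averaged 204 ± 177 CPM in KO inputs and 147 ± 108 CPM in flox inputs, while its IP level in KO was near 0. Of the 48 higher genes, 41 were tested in the inputs and 36 were above 0 there (median 1.01). The ribosomal proteins had an input median of 1, and Rps12 averaged 170 ± 19 CPM in KO inputs and 31.2 ± 23.6 CPM in flox inputs. Input and IP libraries were made with different kits and fitted separately, so their values stand side by side and the difference between them was not tested here.

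**Figure D5:**
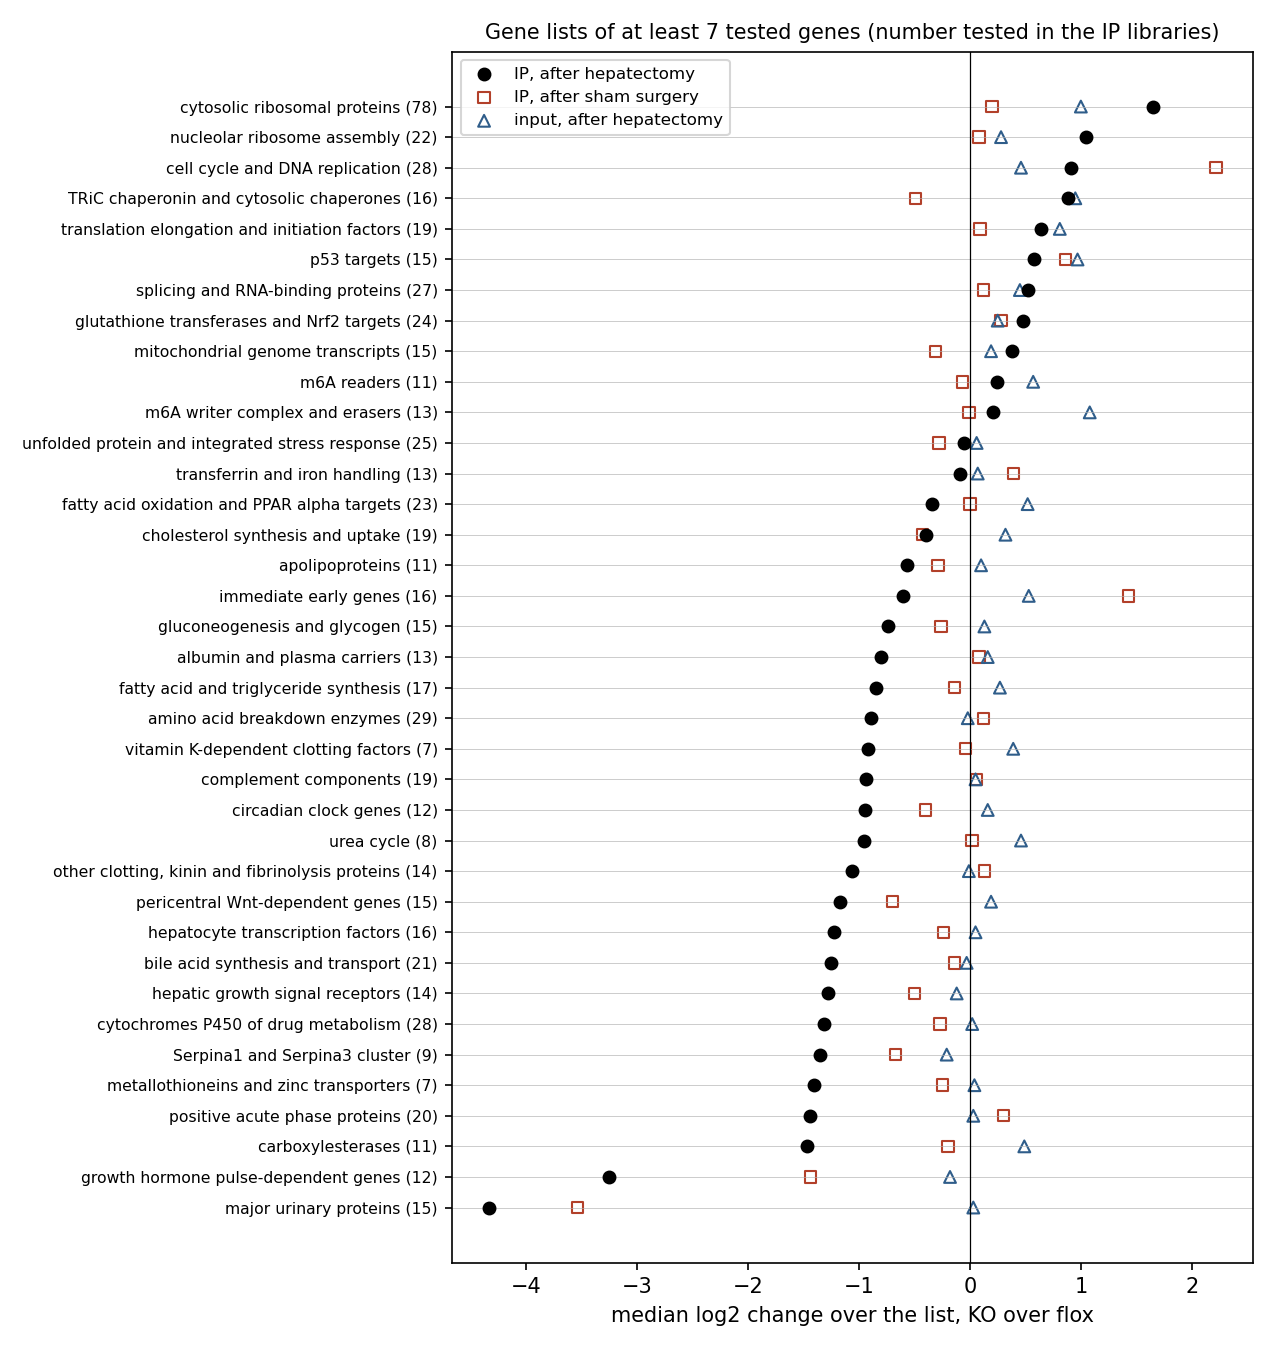
Median log2 change, KO over flox, of each gene list with at least 7 tested genes, in IP libraries after hepatectomy (filled circles), IP libraries after sham surgery (squares) and input libraries after hepatectomy (triangles). In the IP libraries after hepatectomy, acute phase proteins lie at -1.44, hepatocyte transcription factors at -1.23 and major urinary proteins at -4.34. In the inputs these lists lie at 0.03, 0.05 and 0.03. Ribosomal proteins lie at 1.65 in IP and at 1 in the inputs. The median over all genes tested was 0.01 in these IP libraries, 0.16 after sham surgery and 0.49 in the inputs. Input medians are therefore read against 0.49, not against 0.

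Called genes differed in gene model length, a property no test here used. The median length was 3267 bases for the 162 lower genes, 2050 bases for the 48 higher and 4158 bases for all genes tested. Among protein-coding genes with a mean of at least 50 CPM, the shortest of 4 equal groups (204 to 3114 bases) held 58 lower and 26 higher calls. The longest (8375 to 123179 bases) held 15 and 3. The median log2 change was -0.15 in the shortest group and -0.02 in the longest. Without ribosomal protein genes the shortest group had 643 of its 691 genes and a median of -0.26. Counts that were not whole numbers occurred in 32.7% of lower, 58.3% of higher and 22.8% of all genes tested.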

How the data were processed

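The submitters' processing notes name fastp for trimming and STAR for alignment. Versions, the counting program, annotation, strand setting and genome build were not stated in what was available here. The deposited values, made by the authors, are estimated counts per gene (expected counts) for 55421 genes with no scaling between libraries. They were rounded for the count models. Names come from positions matched to RefSeq GRCm38.p6 (36713 named, and 1767 after a shift of 1000000 bases), used for names and promoters only. Both IP contrasts and the interaction were fitted over 16 IP libraries, and the input contrast over 16 input libraries, with edgeR 4.0.16 in R 4.3.3: filterByExpr (minimum count 10), TMM, 1 coefficient per group, quasi-likelihood F-tests, Benjamini-Hochberg adjustment at 0.05. Libraries are from separate animals, so p-values measure the spread between animals. Bounds use a floor of 3 counts over the group; intervals are at 95% and, like bounds, cover counting error only.

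The genes named were taken from several sets. Mettl14 and the fibrinogen genes were always named. Called genes with large changes or high levels (mean of at least 20 CPM, up to 15 each way) followed. These also had to have every library of one group above every library of the other. Others were leading or called members of 46 lists (765 genes, 758 matched, 726 tested). Acsl1, App, F2, Gm8893, Il1r1, Ireb2, Klf9, Krt18, Paqr9, Retreg1, Serpina1c, Slc27a2 and Ugt3a2 were added after their values were seen. The members and lists were chosen with earlier results of these data known. Alternatives were other scalings, filters, DESeq2 1.42.0, only the 8 libraries compared, a replicate block and leaving out each library. A few called genes are not reported here by name.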

Additional observations from a re-analysis of the deposited data

Results flagged for a closer look

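Among 312 groups of 4 library values looked at, 32 values stood apart from the other 3 of their group by Dixon's criterion at the 95% level. KO libraries gave 24 of them and flox libraries 8. KO replicate 4 gave 12, all of them high. The chance rate of about 5% holds for normally distributed values, so it is no yardstick here. For Mettl14, Mup9 and Hsd3b5 in KO, a single library held every count. Many genes were also chosen for their calls, and list sums reuse some of them. The counts of outliers are therefore descriptive, and no excess over chance or difference between KO and flox is read from them.

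The high values of KO replicate 4 were Rap1gap2 at 164 CPM, Traf7 at 148 CPM, Crp at 347 CPM, Mup11 at 22 CPM, Ppara at 133 CPM, Egfr at 1500 CPM, Slco1a1 at 21.8 CPM and Nxpe2 at 1.64 CPM. Its sums stood apart for growth signal receptors at 4720 CPM, metallothioneins and zinc transporters at 1810 CPM, neutrophil markers at 57.3 CPM and lymphocyte markers at 430 CPM. KO replicate 3 stood apart at 391 CPM of Rps12, 238 CPM of Rps19, 7.11 CPM of Ces3b, 0.772 CPM of Mup12 and 0.11 CPM of Mup9. KO replicate 2 stood apart at 2.69 CPM of Mettl14, 7.45 CPM of Cyp2c37, 3.28 CPM of Cyp8b1, 7.22 CPM of Thrsp, 2.78 CPM of Dio1 and 0.0897 CPM of Hsd3b5, and KO replicate 1 at 17.9 CPM of Sult2a8.

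Among flox libraries, replicate 4 was high for Hsd3b5 at 219 CPM, for glutathione transferases and Nrf2 targets at 5020 CPM and for hepatocyte markers at 93400 CPM. Flox replicate 3 was high for Traf7 at 0.414 CPM and low for albumin and plasma carriers at 25500 CPM and mitochondrial transcripts at 108000 CPM. Flox replicate 2 was low for P450 genes at 8820 CPM, and flox replicate 1 for Eef1b2 at 15.7 CPM.

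The genotype contrast differed between hepatectomy and sham surgery, by the interaction test, for Elovl3 (-9.28 on the log2 scale), Cyp8b1 (-8.11), Slc3a1 (-5.54) and Gm8893 (-4.12).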

How the results depend on the processing

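After hepatectomy, 58 of the 162 lower and 6 of the 48 higher IP calls passed in all 16 alternatives. Lower and higher counts were 96 and 75 with library totals alone, 295 and 135 with no filter, 212 and 176 at a mean of 50 CPM, 446 and 363 with DESeq2 and 93 and 33 with only the 8 libraries. They ranged from 98 to 335 and 14 to 122 on leaving out each library. Library totals moved the median of all genes from 0.01 to 0.28, and with it the share of higher calls; the cause of the other shifts was not tested. In sham animals they were 7 and 11 with library totals, 25 and 40 with no filter, 23 and 163 with DESeq2, 13 and 4 with only the 8 libraries, and 4 to 7 and 3 to 12 leaving out each library. The interaction gave 65 and 16 with no filter, 178 and 90 with DESeq2, and 3 to 30 and 0 to 9 leaving out each library. The inputs gave 2 and 2 with upper-quartile factors, 1 and 2 with library totals, 1 and 4 with no filter, 0 and 1 at a mean of 50 CPM, 126 and 926 with DESeq2, 0 and 1 with only the 8 libraries, and 0 to 1 and 3 to 9 leaving out each library. The Mettl14 log2 change of -0.73 turned to 0.04 without flox replicate 1 and lay between -7.15 and 0.04 over the left-out libraries. The difference in genes detected turned to 709 without KO replicate 4 and was -1466 to -404 without any 1 other library.

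The replicate numbers are shared by the groups but did not pair the samples: same-numbered deviations correlated at -0.055, -0.07, -0.012 and 0.024, and no library correlated best with its own number. With the replicate number as a block, hepatectomy gave 268 lower and 40 higher genes, sham surgery 10 and 11, and the interaction 16 and 2. Low totals limit what KO replicate 4 can show, and genes near 0 in a group carry large errors. With every library thinned to 7133726 counts, KO replicate 4 still had the fewest genes with at least 10 counts, at 6676. The other KO libraries then had 9841, 12413 and 11518 such genes, and flox libraries 9613 to 11117. The reason for this difference was not tested.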

Other observations

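Several genes outside the lists had lower IP levels in KO after hepatectomy in all 16 alternatives. Retreg1, a receptor for autophagy of the endoplasmic reticulum, had 23.7, 37.7, 24.6 and 29.8 CPM in KO and 208, 418, 291 and 352 CPM in flox (log2 change -3.45, adjusted p = 9.13e-05 by edgeR). Ugt3a2, a glycosyltransferase, had 32.7, 33.1, 16.1 and 22.1 CPM in KO and 209, 223, 199 and 177 CPM in flox (log2 change -2.96, adjusted p = 0.000112). Ireb2, iron regulatory protein 2, had 32.5, 33.1, 18.7 and 21.2 CPM in KO and 170, 152, 157 and 191 CPM in flox (log2 change -2.67, adjusted p = 0.00125). All 4 KO libraries were close together for each of these, KO replicate 4 included.

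Paqr9 had 44.7, 46.9, 39 and 79.8 CPM in KO and 480, 229, 398 and 209 CPM in flox (adjusted p = 0.000485), and Klf9, a factor induced by thyroid and glucocorticoid hormones, 312, 279, 211 and 121 CPM in KO and 744, 688, 713 and 670 CPM in flox (adjusted p = 0.00807). Dio1, the liver's thyroid hormone deiodinase, had 0, 2.78, 0.11 and 0.126 CPM in KO and 101, 33.9, 102 and 127 CPM in flox (adjusted p = 0.000624). Dio1 also averaged 50.9 ± 65.6 CPM in KO inputs and 28 ± 51.4 CPM in flox inputs (SD, n = 4 each), a wide spread in which no order can be read. Its call held in the 15 alternatives in which it was tested.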
